A study of Mus musculus with 12 samples.

Results

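The 9 genes described here control how a cell senses, takes up and exports sterols. They are Srebf2 and Srebf1, Scap, Insig1 and Insig2, the nuclear receptor gene Nr1h2, and Abca1, Abcg1 and Mylip, 9 of 36175 genes in the table. They were chosen by name, with their values in the comparison of sham controls and stroke mice already known, so this comparison is given for them as a description, and no result rests on a test of it. RNA-seq was performed on B cells of the Peyer's patches (PP), the lymphoid tissue of the small intestine, from 6 sham controls and 6 stroke mice, with 1 library per mouse. All animals were male wild-type C57BL/6JHsd mice aged 10 to 12 weeks, and the protocol gave both groups buprenorphine before and carprofen after the operation. Stroke was induced by occluding the middle cerebral artery with a filament for 1 h followed by reperfusion. Sham controls had surgery with no lasting occlusion. PP were taken 18 h after surgery. B cells were isolated with magnetic beads, and the methods state that the B cell kit left epithelial and endothelial cells, which a further purification on CD45 beads was meant to remove.

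Cells hold their sterol content within limits through opposing transcription factor systems. SREBP-2, encoded by Srebf2, and SREBP-1, encoded by Srebf1, are made as membrane proteins of the endoplasmic reticulum. When sterols are scarce, the escort protein SCAP carries them to the Golgi, where proteases release the part that enters the nucleus and activates genes of sterol and fatty acid synthesis. When sterols are plentiful, the INSIG proteins hold SCAP in the endoplasmic reticulum. Oxysterols then activate the liver X receptors, of which Nr1h2 encodes LXR beta, and these switch on the exporters ABCA1 and ABCG1 and the ubiquitin ligase encoded by Mylip, which marks lipoprotein receptors for degradation. In PP, oxysterols also guide B cells through the receptor encoded by Gpr183.

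The promoter sequences are given first because they show which of these regulators' recognition letters lie close to the start sites. Windows of 300 bases, from 250 bases before to 50 bases after an annotated start, were taken from RefSeq on GRCm38.p6 for 8 of the 9 genes, with 13 windows in all because some genes have several starts. Abcg1 had no window. Both strands were searched for the sterol regulatory element TCACNCCAC, for its shorter form TCACCCCA, for the E-box CACGTG, for the CCAAT box CCAAT, for the GC box GGGCGG and for a DR4 element, the repeat to which LXR binds, written as GGTNA, any 5 bases and GGTNA. A match describes the letters only. Matches to these motifs may overlap, and the shorter sterol regulatory element was added after the windows had been seen.

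The 2 windows with a DR4 match belong to LXR target genes. The Abca1 window lies at chr4:53159846-53160145 on the minus strand and its DR4 match, in capitals, begins 67 bases before the start. The Srebf1 window lies at chr11:60210422-60210721 on the minus strand, at the third of its 3 starts, and its DR4 match, in capitals, begins 182 bases before the start. Both are written 5′ to 3′ in the direction of transcription.
Abca1: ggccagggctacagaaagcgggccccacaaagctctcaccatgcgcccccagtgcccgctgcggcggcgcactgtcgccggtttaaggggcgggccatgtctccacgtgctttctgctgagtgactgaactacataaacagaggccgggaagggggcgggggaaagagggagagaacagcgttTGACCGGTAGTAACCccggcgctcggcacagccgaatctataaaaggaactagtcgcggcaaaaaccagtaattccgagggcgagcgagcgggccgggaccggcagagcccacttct
Srebf1: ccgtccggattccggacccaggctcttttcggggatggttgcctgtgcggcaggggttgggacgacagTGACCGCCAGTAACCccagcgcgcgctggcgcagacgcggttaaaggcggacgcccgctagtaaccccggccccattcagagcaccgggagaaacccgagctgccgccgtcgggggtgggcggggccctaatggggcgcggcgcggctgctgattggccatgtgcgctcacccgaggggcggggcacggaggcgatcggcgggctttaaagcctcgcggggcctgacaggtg
A DR4 match of this kind was found in 0.718% of 32851 mouse windows of this length.

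The promoters of Srebf2 and Insig1, which are themselves SREBP targets, are shown with all matches in capitals. The Srebf2 window lies at chr15:82147019-82147318 on the plus strand and holds the shorter sterol regulatory element, beginning 162 bases before the start, 1 CCAAT box on the other strand and 5 GC boxes. The Insig1 window lies at chr5:28071162-28071461 on the plus strand and holds an E-box, beginning 101 bases before the start, 1 CCAAT box and 3 GC boxes.
Srebf2: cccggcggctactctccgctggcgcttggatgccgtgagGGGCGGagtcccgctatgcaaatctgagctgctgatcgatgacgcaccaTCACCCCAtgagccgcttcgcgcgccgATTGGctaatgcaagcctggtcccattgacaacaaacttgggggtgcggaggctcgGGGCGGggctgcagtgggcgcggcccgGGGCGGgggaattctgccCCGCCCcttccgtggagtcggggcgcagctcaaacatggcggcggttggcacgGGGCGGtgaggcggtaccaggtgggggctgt
Insig1: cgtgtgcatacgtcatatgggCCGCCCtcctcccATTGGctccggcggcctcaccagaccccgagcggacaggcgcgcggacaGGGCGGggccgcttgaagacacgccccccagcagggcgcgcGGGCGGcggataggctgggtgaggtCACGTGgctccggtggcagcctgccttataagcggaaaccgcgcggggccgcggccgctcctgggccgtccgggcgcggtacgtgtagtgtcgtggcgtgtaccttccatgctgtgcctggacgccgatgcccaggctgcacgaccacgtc
The shorter sterol regulatory element was found in 1.56% of all windows, the E-box in 7.15%, the CCAAT box in 37.4% and the GC box in 35.7%. The full sterol regulatory element, found in 1.24% of all windows, was in none of the 13. The E-box was also present in the Abca1 window, 147 bases before the start, and in both Scap windows, which overlap and hold the same E-box. The Mylip window held 3 CCAAT boxes and 1 GC box, and the single Nr1h2 window held none of the motifs.

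Values are normalized TPM by gene as deposited, a transcript abundance corrected for transcript length. The columns summed to between 559570 in sham control 6 and 1404340 in sham control 1, and no read counts are given, so the depth behind a value is unknown. B cell identity was checked with 6 markers, among them Ms4a1, Cd79a, Cd79b and Pax5, of which 6 were at 1 or above in every mouse, with summed levels of 2071 to 2606 in sham controls and 1491 to 2449 in stroke mice. Epithelial markers, of which 4 of 8 were at 1 or above in every mouse, summed to between 34.3 and 1595 in sham controls and between 31.4 and 833 in stroke mice. Macrophage markers summed to between 41.8 and 361 and between 54.5 and 202, T cell markers to between 32.3 and 95.7 and between 31.1 and 115, and neutrophil markers to between 2.89 and 5.59 and between 3.78 and 8.68, with Ly6g at 0 in 8 mice. Plasma cell markers summed to between 159 and 1122 and between 227 and 803, and endothelial markers to between 78.9 and 107 and between 87.6 and 110, with 1 of 6 at 1 or above in every mouse. This was Pecam1, at means of 93.9 and 93.3, which made up nearly all of the sum, whereas Kdr stayed below 1 in every mouse and Emcn was at 0 in 10. In such bulk samples, fewer cells of a type and less RNA per cell cannot be told apart. Nothing in the labels says more of the replicates than the group and a number, so p-values measure the spread between these 12 libraries.

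All 9 genes were at 1 or above in every mouse and passed the filter on low values. Ordered by level over the 12 mice (normalized TPM, mean of all mice), Srebf2 (106), Nr1h2 (88.1) and Mylip (85.2) came first, followed by Abca1 (71.4), Abcg1 (68.1) and Srebf1 (48.6), and then Insig2 (23.7), Scap (23.7) and Insig1 (10.04). Srebf2 led in sham controls (125, compared to 87.0 for Nr1h2), whereas in stroke mice Nr1h2 (89.3), Srebf2 (88.1) and Mylip (86.5) lay close together. The order of neighbours was tested with an exact two-sided sign-flip test over the 12 mice of both groups, adjusted for 8 pairs. Mylip lay above Abca1 in 11 of 12 mice (adjusted p = 0.00391, exact), Abcg1 above Srebf1 in 11 of 12 (adjusted p = 0.00488, exact), Srebf1 above Insig2 in 12 of 12 (adjusted p = 0.00391, exact) and Scap above Insig1 in 11 of 12 (adjusted p = 0.00391, exact). The other 4 neighbours were not separated by this test, Srebf2 and Nr1h2 (adjusted p = 0.0766, exact), Nr1h2 and Mylip (0.597), Abca1 and Abcg1 (0.366) and Insig2 and Scap (0.846). Of the SREBP genes, the lowest Srebf2 level (71.6) lay above the highest Srebf1 level (64.4).

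Among the SREBP genes, Srebf2 had the largest log2 difference between the groups of the 9 genes. Insig1 had a larger one without sham control 3 or without stroke mouse 5. After rescaling to the same total, that of Abca1 was slightly larger in size (0.327, compared to -0.326). Srebf2 lies on chromosome 15 at positions 82147181 to 82205379 of GRCm38. Its level in sham controls had a lowest, median and highest value of 71.6, 125 and 170 normalized TPM (125 ± 33.5, mean ± SD, n = 6), whereas stroke mice had 82.9, 87.2 and 94.8 (88.1 ± 4.38, n = 6). The 6 stroke mice were tightly grouped, with a coefficient of variation of 4.97% compared to 26.8% in sham controls. 5 of the 6 sham controls lay above the highest stroke mouse, and sham control 6 lay below the lowest, so the groups overlapped. The log2 difference of stroke minus sham was -0.45 (standard error 0.17) and it ranged from -0.60 without sham control 6 to -0.32 with the epithelial marker sum as a covariate. When each column was rescaled to the same total it was -0.33, on a scale in which the median of all genes moved to 0.13.

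Srebf1, on chromosome 11 at positions 60199089 to 60222581, did not follow Srebf2. Sham controls had 39.5, 47.4 and 52.2 normalized TPM as lowest, median and highest value (45.7 ± 5.09, n = 6), and stroke mice 42.9, 47.8 and 64.4 (51.5 ± 9.06, n = 6). Stroke mice 1 and 5, at 61.3 and 64.4, were above every sham control and the other 4 lay within the range of the sham controls. The log2 difference was 0.16 (standard error 0.13), and it was 0.09 without stroke mouse 5 and 0.07 with sample weights.

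The escort and retention factors were lower in abundance than the SREBP genes. Scap, on chromosome 9 at positions 110333288 to 110384950, had 21.2, 23.3 and 30.6 normalized TPM in sham controls (lowest, median, highest) and 19.5, 22.0 and 25.5 in stroke mice, with a log2 difference of -0.16 (standard error 0.13). It was -0.10 without sham control 1 and -0.04 after rescaling to the same total. 3 stroke mice lay below all sham controls and the rest overlapped with them. Insig1, on chromosome 5 at positions 28071363 to 28078662, is both a brake on SREBP processing and an SREBP target gene. It had 4.83, 10.9 and 23.98 normalized TPM in sham controls (11.9 ± 6.599, n = 6) and 5.52, 7.80 and 10.9 in stroke mice (8.21 ± 2.07, n = 6). As for Srebf2, the extremes of both groups were sham controls, with sham control 2 highest and sham control 6 lowest, and the 6 stroke mice lay between them. The log2 difference of Insig1 was -0.38 (standard error 0.30). It was -0.15 without sham control 2, -0.59 without sham control 6 and -0.16 with the epithelial marker sum as a covariate. Insig2, on chromosome 1 at positions 121304353 to 121332589, encodes the other retention protein, which is not a classical SREBP target. Insig2 had medians of 23.1 normalized TPM in sham controls and 23.0 in stroke mice, within ranges of 19.4 to 31.4 and 15.4 to 31.7 that overlapped almost fully.

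On the export side, Nr1h2 had the smallest spread within groups of the 9 genes (SD of 0.18 on the log2 scale). It lies on chromosome 7 at positions 44549616 to 44553951 and had 73.2, 84.7 and 106 normalized TPM in sham controls (lowest, median, highest) and 80.4, 85.7 and 108 in stroke mice, a log2 difference of 0.04 (standard error 0.12). Abca1, on chromosome 4 at positions 53030787 to 53159895, moves cholesterol to lipid-poor apolipoprotein. Abca1 had 43.6, 71.3 and 81.4 normalized TPM in sham controls (66.6 ± 15.2, n = 6) and 57.9, 72.6 and 96.6 in stroke mice (76.1 ± 15.5, n = 6), with a log2 difference of 0.20 (standard error 0.18). It was 0.09 without sham control 5, 0.13 without stroke mouse 5 and 0.04 with sample weights. Stroke mice 1 and 5 were above all sham controls, as they were for Srebf1.

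Abcg1, on chromosome 17 at positions 31057675 to 31117988, exports cholesterol to mature lipoprotein particles. It had 37.6, 72.1 and 91.0 normalized TPM in sham controls (69.0 ± 18.3, n = 6) and 53.2, 65.1 and 87.8 in stroke mice (67.1 ± 13.0, n = 6), and all stroke mice lay within the range of the sham controls. Mylip, on chromosome 13 at positions 45389742 to 45412022, had 61.3, 86.2 and 103 normalized TPM in sham controls (83.9 ± 14.0, n = 6) and 68.8, 86.6 and 107 in stroke mice (86.5 ± 12.3, n = 6). Both genes had their lowest value of all mice in sham control 5 and their lowest stroke value in stroke mouse 3, and so did Abca1. The log2 differences of Abcg1 and Mylip were -0.01 (standard error 0.20) and 0.05 (standard error 0.14).

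**Figure D1:**
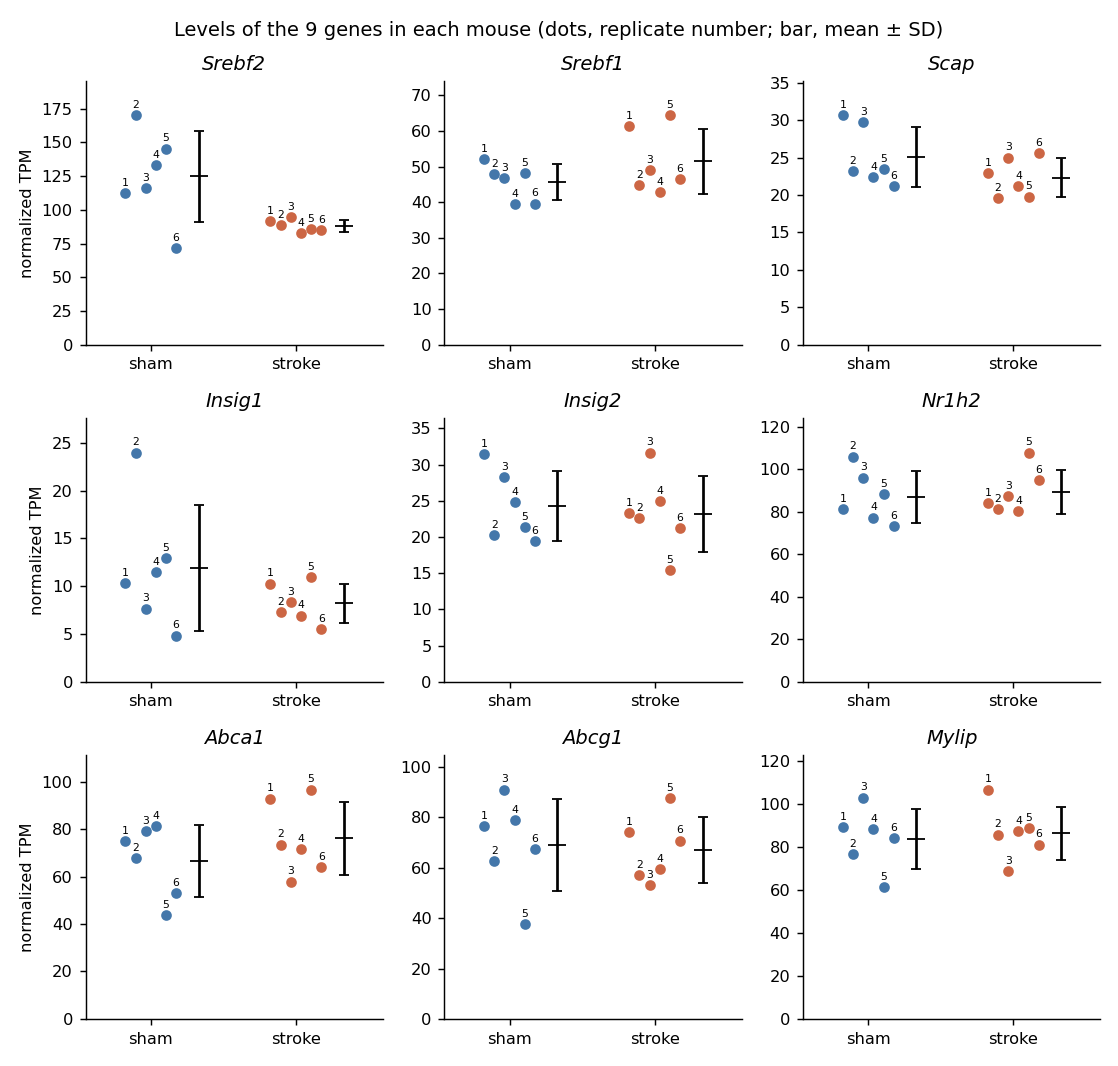
Level of each of the 9 genes in normalized TPM (vertical axis, from 0) in every mouse of the sham and stroke groups. Dots are mice with their replicate number, and the bar gives the mean ± SD of 6 mice. The 6 stroke mice of Srebf2 sit between 82.9 and 94.8, inside a sham range of 71.6 to 170.

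Across the 9 genes, 5 had a negative and 4 a positive difference, with a median of -0.01, compared to 48.6% negative and a median of 0.01 over all 12590 genes tested. Only Srebf2 had an unadjusted p under 0.05 in limma, in the lower direction, beside 1.69% of all genes called lower and 6.12% called in either direction, and 0 of 12590 genes had an adjusted p under 0.05. None of the 9 genes had groups that did not overlap, compared to 0.437% of all genes. Because the members were selected on the same contrast, nothing is read from these counts. The sign of the difference was the same in all alternatives tried for Srebf2, Srebf1, Scap, Insig1 and Abca1. It turned in 3 of 24 alternatives for Insig2, Nr1h2 and Mylip and in 8 for Abcg1.

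The genes around these 9 were then compared in the same limma fit. Among the sterol synthesis enzymes, the classical target genes of SREBP-2, 19 of 20 were tested, 16 had a lower mean log2 value in stroke mice and the median log2 difference was -0.39, compared to 0.01 for all genes. At an unadjusted p under 0.05, 4 of the 19 were called lower and 0 higher, beside 1.69% of all genes called lower and 4.42% called higher, and none passed after adjustment. Msmo1, a C4-sterol demethylating oxidase, was at 20.4 ± 9.16 normalized TPM in sham controls and 9.77 ± 1.31 in stroke mice (log2 difference -0.92, standard error 0.25). Sqle, which makes squalene epoxide, was at 10.2 ± 5.13 and 5.49 ± 0.592 (-0.70, standard error 0.27). Fdps, which makes farnesyl diphosphate, was at 23.9 ± 12.3 and 12.1 ± 3.10 (-0.81, standard error 0.34), and Hmgcs1, which makes the precursor of mevalonate, was at 21.2 ± 10.02 and 12.2 ± 3.21 (-0.67, standard error 0.30). All 4 had the smaller SD in stroke mice, as Srebf2 and Insig1 did. The 8 epithelial markers also had lower means in stroke mice, with a median sum of 408 in sham controls and 168 in stroke mice, for example Epcam at 70.2 ± 73.4 and 18.2 ± 20.5 normalized TPM. With their sum as a covariate, the log2 difference was -0.70 for Msmo1, -0.46 for Sqle, -0.50 for Fdps and -0.41 for Hmgcs1. Msmo1 was called under all 24 alternatives, Sqle under 20 of 23, Fdps under 15 of 24 and Hmgcs1 under 13 of 24. The number of enzymes called lower was 1 without sham control 2, 1 without sham control 5, 1 with the epithelial marker sum as a covariate, and 11 without sham control 6, the mouse with the lowest column total. It was 2 without sham controls 1 or 4 and without stroke mice 4, 5 or 6, and 8 with sample quality weights. Over all genes 213 of 12590 were called lower in the main fit and 703 of 12590 with weights. Without sham control 6 it was 1162 of 12661 genes, with 20 enzymes tested. In the other settings named here, the number over all genes was 123 to 213.

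The other 4 lists had median log2 differences between -0.12 and 0.04. For comparison, 6.12% of all genes were called in either direction. None of the 9 SREBP processing factors, which include the site-specific proteases and the INSIG ligases, was called in either direction, with a median of -0.01. The smallest p among them was that of Rnf145, a ligase gene induced by LXR, at 101 ± 4.56 normalized TPM in sham controls and 124 ± 38.7 in stroke mice, in limma with adjusted p = 0.794. Its stroke values ran from 103 to 202, and the log2 difference of 0.24 was 0.09 without stroke mouse 5 and 0.12 with sample weights. Of the LXR partners and targets, 8 of 10 were tested, 1 was called higher and 0 lower, with a median of 0.04. Over all genes 4.42% were called higher. After rescaling to the same total none was called, and without sham control 1 there were 2 called higher. 1 was called lower without sham controls 3, 5 or 6, without stroke mice 4 or 6, under median-of-ratios scaling, quantile normalization or an intensity trend, with no filter and with a filter of at least 5, and the replicate block gave 1 higher and 2 lower. In sterol transport and storage, 14 of 17 genes were tested and 0 were called. Soat1, which esterifies cholesterol for storage, had the smallest p there, at 120 ± 20.5 and 92.3 ± 24.6 normalized TPM (-0.41, standard error 0.20, limma adjusted p = 0.791). Soat1 was called lower under 6 of 24 alternatives, including without sham control 6 and without stroke mouse 1, and its difference was -0.25 without stroke mouse 5. The genes of this list called lower numbered 2 under median-of-ratios scaling, quantile normalization or sample weights, 3 without sham control 6, and 1 without sham control 3 or stroke mouse 1, and 1 was called higher with the epithelial covariate. Over all genes, those called lower numbered 316 under median-of-ratios scaling, 327 under quantile normalization, 703 with sample weights and 1162 without sham control 6. Of the oxysterol genes 4 of 6 were tested and 1 was called lower, beside 1.69% of all genes called lower. With no filter on low values 6 were tested, 1 called higher and 1 lower, beside 1418 higher and 350 lower of 31890 genes. The gene called lower was Gpr183, at 88.3 ± 16.3 and 62.2 ± 13.7 normalized TPM (-0.51, standard error 0.17, limma adjusted p = 0.748), which was not called after rescaling to the same total (-0.39, where the median of all genes was 0.13). Of the enzymes that make its ligand, Ch25h was at 0 in 10 of 12 mice and Cyp7b1 at 0 in 5, with highest values of 0.145 and 0.154 normalized TPM. Hsd3b7, which degrades the ligand, was at 2.09 ± 0.562 normalized TPM in sham controls and 1.98 ± 0.543 in stroke mice.

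**Figure D2:**
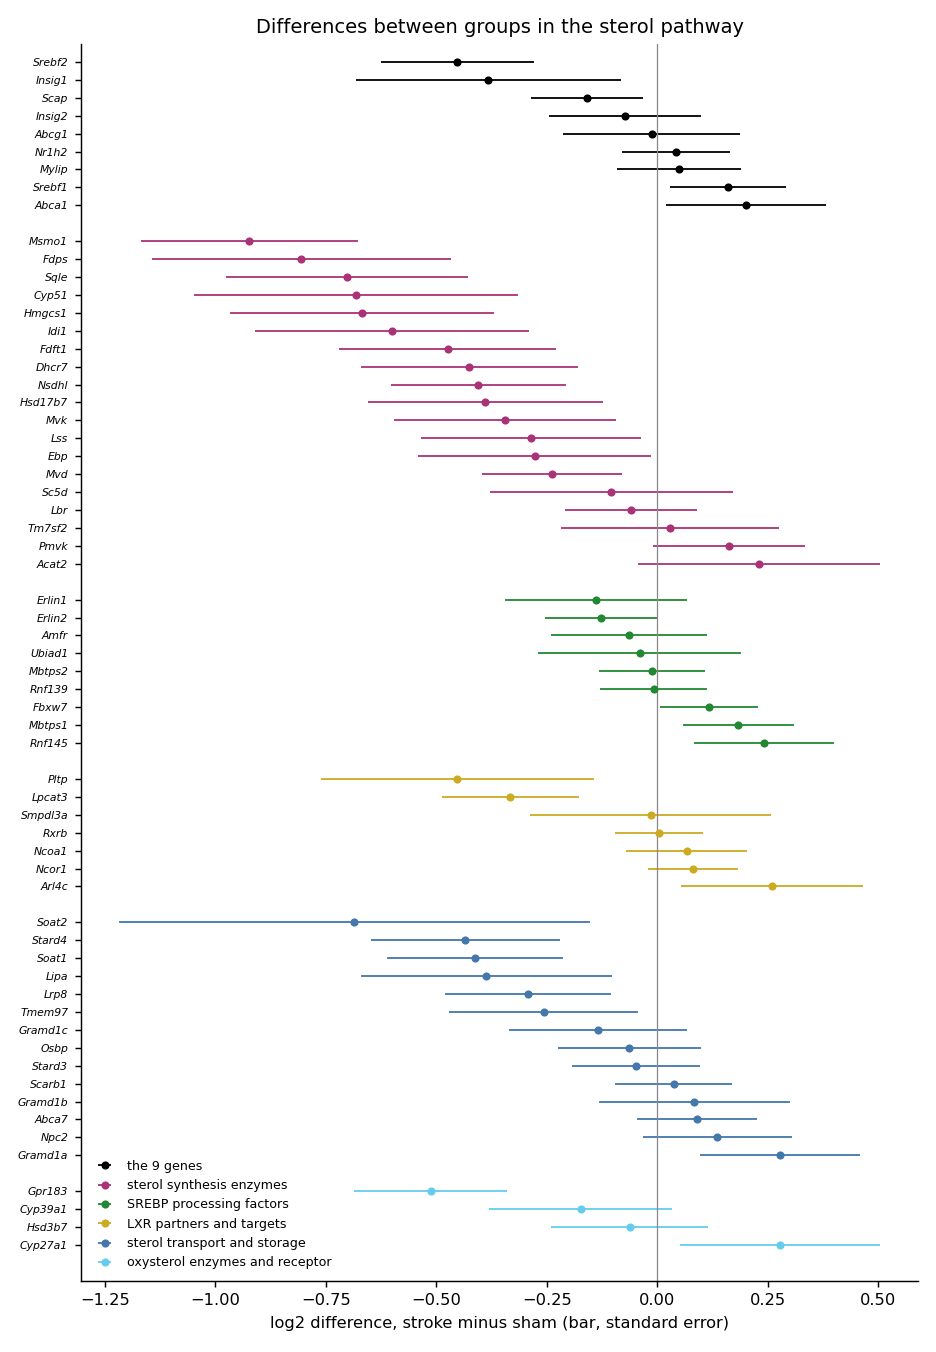
Log2 difference of stroke minus sham (horizontal axis) for the 9 genes and the tested genes of 5 pathway lists that are reported here, with the standard error of the limma fit as a bar. 16 of 19 sterol synthesis enzymes lie left of 0, whereas the 9 genes lie on both sides.

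Variation between mice of the same group was not used to choose the genes and could be tested. For this, each log2 value was taken relative to the mouse's mean over all genes tested and then centred within its group, and Pearson's r and Spearman's rho were computed over the 12 mice with 100000 permutations within groups. Each of the 9 genes was first compared with the mean of the 19 synthesis enzymes, which was highest in sham control 2 and lowest in sham control 6 after centring. Srebf2 and Insig1 rose and Abcg1 and Mylip fell with this mean. Srebf2 had r = 0.83 (permutation p = 0.0160, adjusted p = 0.0378 over 9 genes) and rho = 0.68 (adjusted p = 0.138). Insig1 had r = 0.80 (permutation p = 0.00949, adjusted p = 0.0378) and rho = 0.64 (adjusted p = 0.138). Both relations rested on the extreme mice, since without sham controls 2 and 6 r was 0.49 for Srebf2 (permutation p = 0.382) and 0.44 for Insig1 (permutation p = 0.207). Within the 6 sham controls r was 0.85 and 0.94, and within the 6 stroke mice 0.61 and 0.15. Of the sham controls, number 6 had the lowest column total and the lowest epithelial, plasma cell and macrophage sums. In each of these, sham control 2 came behind only sham control 1.

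The opposite relation held for the LXR targets Abcg1 and Mylip. Abcg1 had r = -0.73 (permutation p = 0.0168, adjusted p = 0.0378) and rho = -0.80 (adjusted p = 0.0284). Without sham controls 2 and 6 its r was -0.89 (permutation p = 0.00380), within sham controls -0.76 and within stroke mice -0.68. Mylip had r = -0.76 (permutation p = 0.0116, adjusted p = 0.0378) and rho = -0.70 (adjusted p = 0.119), with r = -0.78 (permutation p = 0.0343) without the same 2 mice, -0.89 within sham controls and -0.31 within stroke mice. The log2 germinal centre marker sum was also taken out, not relative to the mouse's mean over all genes as the genes were. Then r of Abcg1 was -0.57 and its relation no longer passed (permutation p = 0.0322, adjusted p = 0.0725). Srebf2, Insig1 and Mylip had 0.79, 0.85 and -0.76 (adjusted p = 0.0432, 0.0329 and 0.0432 by permutation). Taking out the sum on the relative scale was not tested. When values were not taken relative to the mouse's mean over all genes, r was -0.50 for Abcg1 (permutation p = 0.195) and -0.46 for Mylip (permutation p = 0.194), so these relations depend on that step, whereas Srebf2 and Insig1 had 0.90 and 0.83. The remaining genes had r between -0.43 for Abca1 (permutation p = 0.208) and 0.02 for Nr1h2, and none of them passed the threshold. Leaving out single mice, 5 of 12 removals kept an adjusted p under 0.05 for Srebf2, 4 for Insig1, 3 for Abcg1 and 4 for Mylip, while the weakest r was 0.70, 0.65, -0.67 and -0.69. With the replicate block, which leaves 6 differences between same-numbered mice, r was 0.81, 0.61, -0.76 and -0.90. None of the 4 passed in that setting (adjusted p = 0.169 to 0.318, by permutation).

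**Figure D3:**
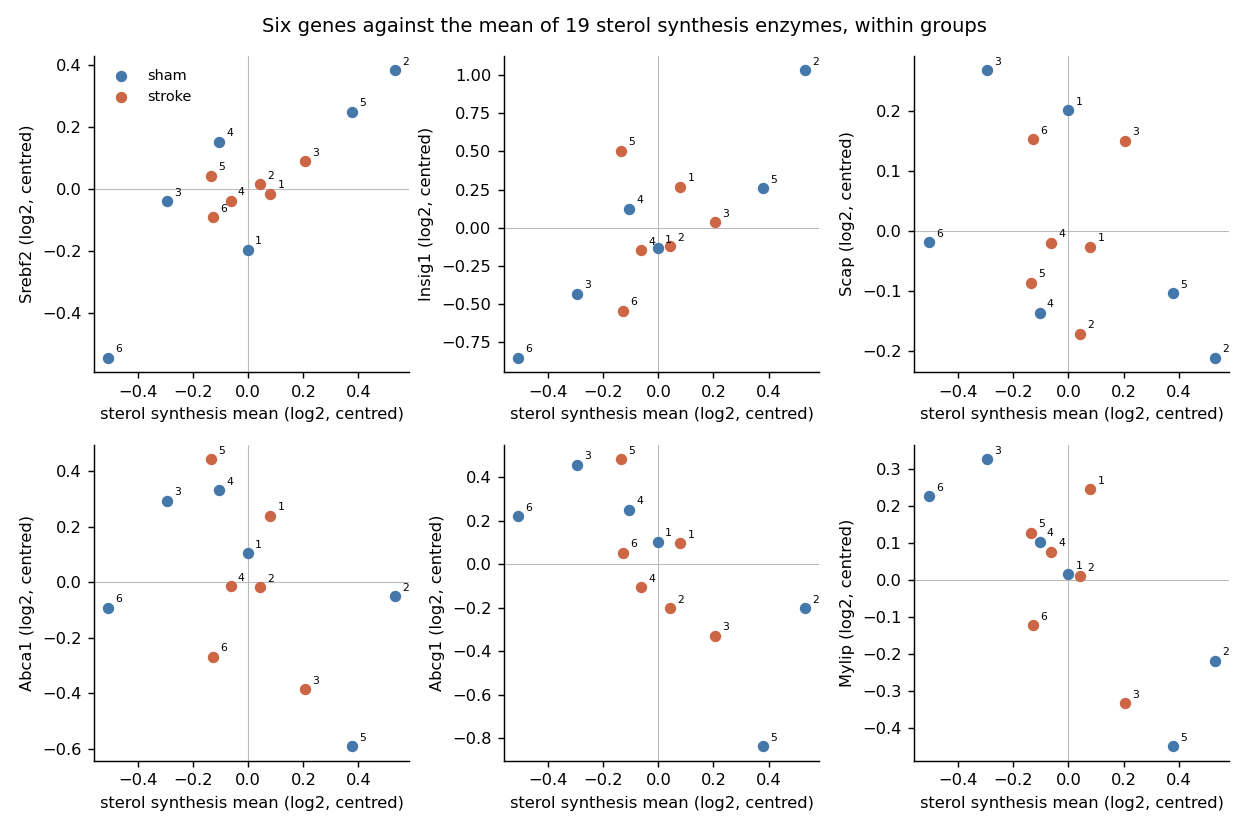
Level of 6 of the genes (vertical axis, log2, relative to all genes and centred within groups) against the mean of 19 sterol synthesis enzymes on the same scale (horizontal axis), with 1 dot per mouse coloured by group and numbered by replicate. Srebf2 and Insig1 slope upwards (r = 0.83 and 0.80) and Abcg1 and Mylip downwards (r = -0.73 and -0.76).

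Between the 9 genes themselves, 36 pairs were compared and 4 had an adjusted p under 0.05. The first 3 link the LXR targets to each other. Abcg1 and Mylip had r = 0.86 (permutation p = 0.00106, adjusted p = 0.0239) and rho = 0.83 (adjusted p = 0.0376). Abca1 and Abcg1 had r = 0.86 (permutation p = 0.00133, adjusted p = 0.0239) and rho = 0.81 (adjusted p = 0.0376), and Abca1 and Mylip r = 0.82 (permutation p = 0.00217, adjusted p = 0.0260) and rho = 0.75 (adjusted p = 0.0984). Without sham controls 2 and 6 these were 0.85, 0.90 and 0.91. Of single removals they were weakest without sham control 5, at 0.75, 0.75 and 0.70. An adjusted p under 0.05 was kept in 9, 8 and 7 of 12 single removals. Within sham controls r was 0.97, 0.91 and 0.80, and within stroke mice 0.60, 0.81 and 0.87. The fourth pair was Srebf2 and Insig1, at r = 0.84 (permutation p = 0.00481, adjusted p = 0.0433) and rho = 0.83 (adjusted p = 0.0418), with 0.58 (permutation p = 0.0647) without sham controls 2 and 6, on which it therefore rested, 0.91 within sham controls and 0.64 within stroke mice. For this pair, 4 of 12 single removals kept an adjusted p under 0.05. With the replicate block none of the 36 pairs passed. Nr1h2, whose product acts on the 3 targets, was in no pair that passed, nor were Srebf1, Scap and Insig2, with Scap and Insig2 nearest at r = 0.64 (permutation p = 0.0294, adjusted p = 0.212).

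**Figure D4:**
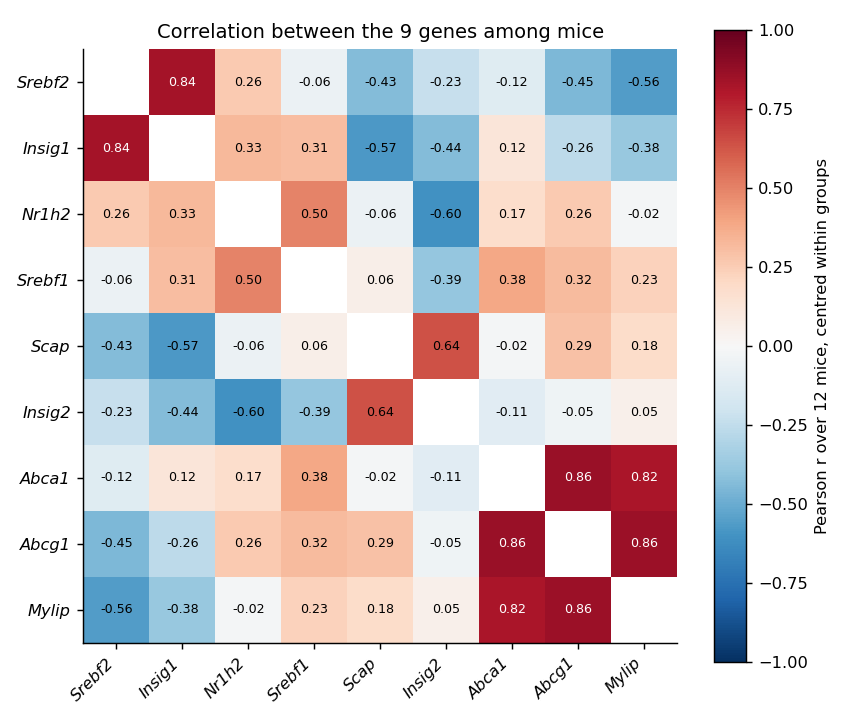
Pearson's r over 12 mice for each pair of the 9 genes (both axes list the genes), centred within groups, with red for positive and blue for negative values. The block of Abca1, Abcg1 and Mylip at the lower right has r of 0.82 to 0.86, and Srebf2 and Insig1 at the upper left have 0.84.

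Germinal centre B cells make up part of PP B cells. Their markers had negative correlations with the LXR targets, which did not pass the adjustment over all lists. The 6 markers, among them Bcl6, S1pr2, Gcsam and Mki67, were all at 1 or above in every mouse, and their sum ranged from 171 to 358 in sham controls and from 171 to 379 in stroke mice. It was highest in sham control 5 and stroke mouse 3, the mice in which Abca1, Abcg1 and Mylip were lowest in their groups. In a comparison of 8 marker lists with the 9 genes and the synthesis mean, chosen after these values were seen, none of 80 relations had an adjusted p under 0.05. The germinal centre sum had r = -0.84 with Mylip (permutation p = 0.00133, adjusted p = 0.106; rho = -0.72), -0.83 with Abca1 (permutation p = 0.00297, adjusted p = 0.119; rho = -0.82) and -0.72 with Abcg1 (permutation p = 0.0201, adjusted p = 0.537; rho = -0.60). Without the 2 mice farthest from the median of the marker sum these were -0.53, -0.56 and -0.18. The log2 marker sum was then taken out without being made relative to the mouse's mean over all genes, unlike in these correlations. On that scale r was 0.19 for Abca1 and Mylip (permutation p = 0.548), 0.60 for Abca1 and Abcg1 (permutation p = 0.0527) and 0.57 for Abcg1 and Mylip (permutation p = 0.0197). The values before were 0.82, 0.86 and 0.86, and none of the 36 pairs now had an adjusted p under 0.05. Taking out the relative sum was not tested. Without sham control 5 and stroke mouse 3, the 3 values were 0.57, 0.68 and 0.68. With the marker sum taken out, the Srebf2 and Insig1 pair moved little, from 0.84 to 0.85.

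**Figure D5:**
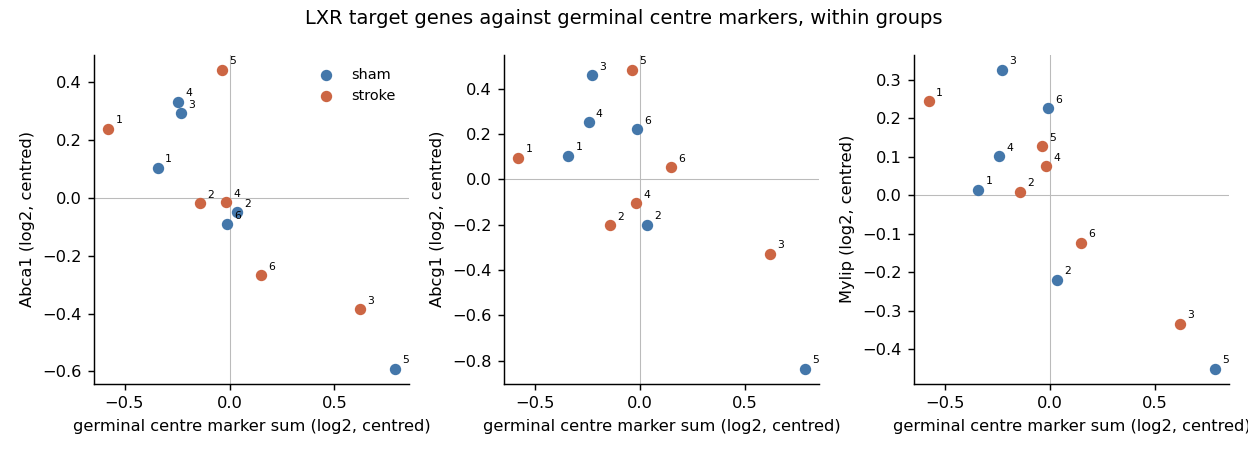
Abca1, Abcg1 and Mylip (vertical axes, log2, relative to all genes and centred within groups) against the log2 sum of 6 germinal centre markers (horizontal axes, also relative to all genes and centred within groups), with 1 dot per mouse numbered by replicate. Sham control 5 and stroke mouse 3 lie farthest to the right and low in all 3 panels, and r is -0.83, -0.72 and -0.84.

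Of the other marker lists, none of the relations had an adjusted p under 0.05. The largest r was -0.69, between the B cell sum and Srebf1 (permutation p = 0.0388, adjusted p = 0.691; rho = -0.41), and it was -0.05 without the 2 farthest mice. The neutrophil sum had r = -0.59 with Insig1 (permutation p = 0.0602; rho = -0.26) and -0.57 with Nr1h2 (permutation p = 0.0660; rho = -0.44). With the synthesis mean, the plasma cell sum had r = 0.62 (permutation p = 0.0557; rho = 0.64), the macrophage sum 0.59 (permutation p = 0.0954; rho = 0.60) and the endothelial sum, nearly all Pecam1, -0.57 (permutation p = 0.142; rho = -0.69), all with adjusted p of 0.691 or 0.755. The part of these cells in the relations was not tested. The epithelial sum had r = 0.56 with the synthesis mean (permutation p = 0.0691, adjusted p = 0.691; rho = 0.52), 0.42 with Srebf2 (permutation p = 0.213; rho = 0.15) and 0.45 with Insig1 (permutation p = 0.165; rho = 0.41). The log2 epithelial sum was also taken out, again not relative to the mouse's mean over all genes. The same number of relations then passed the threshold, 4 with the synthesis mean and 4 between the genes. In that setting r of Srebf2 and Insig1 with the synthesis mean was 0.79 and 0.73. Macrophages also express Abca1 and Abcg1 strongly. The macrophage marker sum had r = -0.17 with Abca1 (permutation p = 0.627; rho = -0.13) and -0.32 with Abcg1 (permutation p = 0.383; rho = -0.36).

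The genes most alike in pattern over the 12 mice, by Pearson's r among all genes tested and as a description only, were Rsl24d1 (0.94), Phf6 (0.92) and Cyp51 (0.90) for Srebf2. Cyp51 is lanosterol demethylase, an enzyme of the synthesis list. For Insig1 they were Slc35c2 (0.94), Fbxw8 (0.94) and Spryd7 (0.90). Abcg1 was most like Ubxn7 (0.96), Tmem265 (0.94) and Mef2a (0.91), and Tmem265 also led for Mylip (0.94), before Ttc28 (0.91) and Shprh (0.89). Abca1 was most like Gbp7 (0.94), Etv3 (0.92) and Dedd2 (0.90), and Nr1h2 like Bnip1 (0.93), Zbed3 (0.91) and Mef2c (0.90). For Srebf1 they were Atp6v1e1 (0.92), Vps36 (0.91) and Klf9 (0.90), for Scap Gpank1 (0.85), Alyref2 (0.83) and Wrap73 (0.82), and for Insig2 Rsl1 (0.88), Fto (0.88) and Entpd6 (0.87).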

How the data were processed

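Sequenced were magnetically isolated PP B cells, with 6 mice in each group. According to the methods and processing notes, the authors trimmed reads with Trimmomatic 0.39 and quantified them with kallisto 0.48.0 against Ensembl 102. Their deposited table holds a signal for each gene that is labelled as normalized TPM. Tests had been planned for plain TPM, but because the columns do not share a sum they were handled as signal, with rescaling to 1 common total as an alternative.

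Genes at 1 or above in every mouse (12590) were transformed as log2(value + 0.5) and compared in limma 3.58.1 (R 4.3.3, two-sided, Benjamini-Hochberg adjustment over all genes tested). A gene was called at an unadjusted p under 0.05. Log2 differences on this scale understate those of low genes. Correlations were computed in Python 3.11.15. The limma and correlation tests were tested on simulated data. The 9 genes and the pathway and marker lists were chosen with earlier results of these data known. Of each pathway list, the genes called, or else that with the smallest p, are named, and for each of the 9 genes the 3 most alike. Some genes of these pathways are not reported here. Positions are from GENCODE M21 on GRCm38. Alternatives were other pseudocounts, filters and scalings, a replicate block, sample weights, an intensity trend, marker covariates and leaving out each mouse.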

Additional observations from a re-analysis of the deposited data

How the results depend on the processing

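The number of genes called at an unadjusted p under 0.05 was 770 (72.3% of them higher). It was 1768 with no filter on low values, 417 after rescaling to the same total (83.5% higher), 1174 with the replicate block, 1569 with sample weights (55.2% higher) and 567 to 2098 when single mice were left out, the highest without sham control 6 (44.6% higher). Median-of-ratios scaling gave 56.3% higher and quantile normalization 53.6%. The count at an adjusted p under 0.05 was 0, and 1 with a mean of at least 1 as the filter and 0 to 1 when single mice were left out. The genes called in the pathway lists numbered 6, but 11 with median-of-ratios scaling, 11 with quantile normalization, 13 with the replicate block (4 of them in sterol transport and storage and 3 among LXR partners and targets), 12 with sample weights and from 3 without sham control 2 to 17 without sham control 6.

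The relations with the synthesis mean that passed numbered 4. There were 2 without subtracting the mean of all genes, 1 without the 2 farthest mice, 0 with the replicate block (adjusted p = 0.169 for Srebf2, Abcg1 and Mylip and 0.318 for Insig1, by permutation), 0 within sham controls, 0 within stroke mice, 0 without the 2 mice highest in germinal centre markers and 0 to 4 when single mice were left out. Of the pairs, 4 passed, with 2 under quantile normalization, 1 without the 2 farthest mice, 0 with the replicate block, 0 with germinal centre markers taken out, 0 without the 2 mice highest in them and 0 to 4 when single mice were left out. All 8 relations kept their sign in every alternative. Fewer mice or residual degrees of freedom are part of the construction of the block and of the smaller subsets. For the other changes the cause was not tested. The order of levels gave 4 separated neighbours, and 4 to 5 when single mice were left out.

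The labels do not say what the replicate numbers stand for. Same-numbered mice had correlations of 0.494, 0.212, 0.0761, 0.139, 0.0134 and 0.373 between deviations from their group means, 4 of 6 over 0.1. Their mean was 0.218, compared to -0.0414 for mice of unlike number. Only numbers 1 and 4 matched their own number best, and the mice were not treated as paired. The permutation p-values therefore ignore any structure shared by replicate number. The marker covariates, the removal of the mice highest in germinal centre markers and the within-group values were chosen after seeing the data. In the correlations, the marker sums taken out were not relative to the mouse's mean over all genes, whereas the genes were. Without read counts the depth sets an unknown limit, mainly for Insig1.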
